A study of Mus musculus with 59 samples.

Results

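Baclofen activates GABA-B receptors and is prescribed as a muscle relaxant. The spleen was examined here after 5 daily doses of the drug, in 12 of the 59 mouse expression arrays of the study: 8 spleens from baclofen-treated mice and 4 from vehicle-treated mice, chosen by their sample titles. All mice were of the B6C3F1 hybrid strain, and the vehicle was 0.5% methylcellulose. Tissue was taken 2 h after the last dose, and part of a spleen cross-section went into each RNA preparation. The comparison groups were 8 spleens collected after 1 dose (4 baclofen, 4 vehicle) and 12 bone marrow samples collected after 5 daily doses (8 baclofen, 4 vehicle). The labels used here give neither the dose nor the age or sex of the mice, and they do not say whether each array holds 1 animal, so the p-values measure the spread between these arrays.

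The spleen filters blood in its red pulp, where macrophages take up old red cells and, in mice, red cell precursors also divide. Its white pulp holds B and T lymphocytes. Lymphocytes carry the glucocorticoid receptor, a hormone-activated transcription factor, and its targets include genes that restrain growth signalling, inflammation and survival. In a bulk sample, fewer cells of a type and less RNA per cell cannot be told apart.

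The arrays carried spleen RNA. The mean log2 intensity of 21 B cell genes lay between 10.95 and 11.47 in the 12 spleens, against 4.85 to 5.22 in the 19 liver arrays of the study. The macrophage factor Spic lay between 8.67 and 9.70 in the same spleens, against 4.87 to 5.42 in liver. Several of the spleens also carried RNA of other tissues, which the plot of liver and fat transcripts shows. The mean of 12 hepatocyte genes was 9.77 in baclofen replicate 5, with the other 7 baclofen arrays between 4.86 and 5.48, against 7.30, 5.13, 9.98 and 6.13 in vehicle replicates 1 to 4. The spleens collected after 1 dose lay between 4.78 and 5.01. The 229 tested genes that were at least 3 log2 units brighter in liver than in 1-day spleens were therefore counted apart, and 10687 genes were read. The mean of 12 adipocyte genes ranged from 5.69 to 7.57 in baclofen spleens and from 5.60 to 6.45 in vehicle spleens. The fat hormone gene Adipoq reached 9.58, 7.98, 7.45, 7.61 and 9.37 in baclofen replicates 1, 3, 4, 6 and 7, and did not exceed 5.13 in the other 3 baclofen spleens or 5.03 in the vehicle spleens. Baclofen replicate 5 and vehicle replicates 1 and 3 are called the 3 spleens with liver transcripts, and these 5 baclofen spleens those with fat transcripts. Pancreas and muscle lists showed no such spread: the 12 muscle genes averaged 5.11 to 5.28 in baclofen spleens and 5.13 to 5.27 in vehicle spleens.

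**Figure D1:**
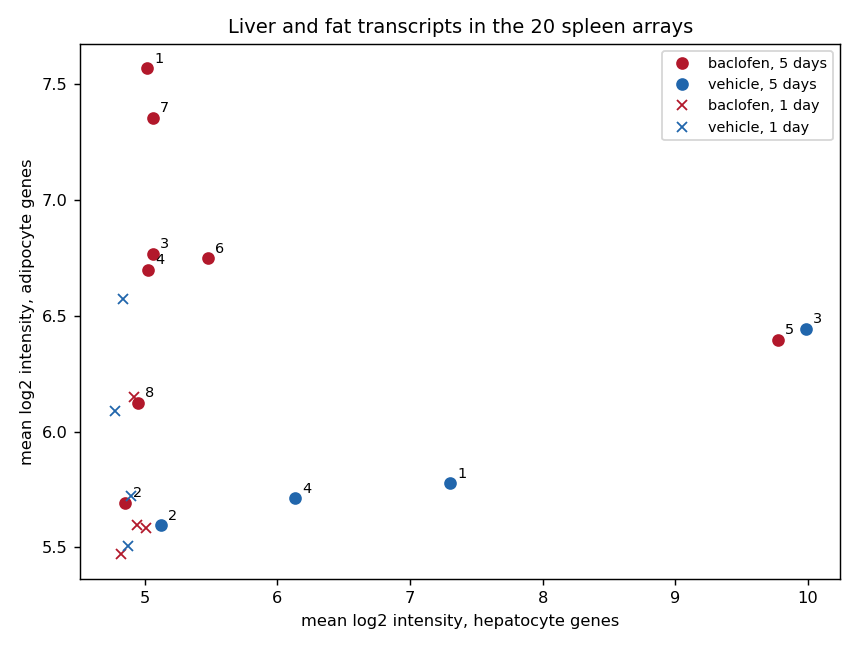
Mean log2 intensity of 12 hepatocyte genes (horizontal) and of 12 adipocyte genes (vertical) in the 20 spleen arrays. Points are arrays after 5 daily doses, numbered by replicate, and crosses are arrays after 1 dose. Baclofen replicate 5 and vehicle replicate 3 lie far to the right, at 9.77 and 9.98, and baclofen replicates 1 and 7 lie highest, at 7.57 and 7.36.

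After 5 daily doses, 15 of 22 glucocorticoid-responsive genes rose in the spleen and 10 of 19 heat shock chaperones fell. Of the 10687 genes read, 318 rose (2.98%) and 151 fell (1.41%) at a Benjamini-Hochberg adjusted p under 0.05 in limma, fitted over all 10916 tested genes. With the genes that liver could raise included, 4.43% passed, 3.05% higher and 1.38% lower in baclofen spleens. The median size of these changes was 0.38 on the log2 scale, on which a difference of 1 is 2-fold. At least a 2-fold change was measured for 20 of the genes that rose and for 3 of those that fell. The groups did not overlap for 221 of the genes that rose and 89 of those that fell; over all tested genes, 3.47% had every baclofen array above every vehicle array and 1.61% had every one below. These counts depended on single arrays: without vehicle replicate 2 there were 95 rises and 33 falls, and without baclofen replicate 7 there were 420 and 320. Vehicle replicate 2 had the highest means of erythroid membrane and mitosis genes among the 5-day spleens (10.79 and 10.06). Its means of B cell, T cell and endothelial genes were the lowest (10.95, 8.24 and 7.61). Rises numbered 195, 204 and 211 without vehicle replicate 1, baclofen replicate 1 and baclofen replicate 6. Falls numbered 72, 72, 93, 76 and 68 without vehicle replicate 1 and baclofen replicates 1, 2, 5 and 6, and 274 without vehicle replicate 4. Leaving out the 5 baclofen spleens with high Adipoq, which leaves 3 baclofen arrays, gave 52 rises and 4 falls. With all arrays kept and the mean of the adipocyte genes as a covariate, limma gave 57 rises and 4 falls. That mean averaged 6.67 in baclofen spleens and 5.88 in vehicle spleens, so the covariate partly overlaps with treatment. It is also not specific to fat, as the same list averaged 6.57 to 6.91 in the liver arrays. Vehicle replicate 3 had the highest adipocyte mean of the vehicle spleens (6.45), with Adipoq at 5.03 and a hepatocyte mean of 9.98. The cause of the smaller counts was not tested.

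Pdk4, whose enzyme switches off pyruvate dehydrogenase and so spares glucose, had the largest rise. Its log2 intensity in the 8 baclofen spleens had a lowest value of 8.87, a median of 9.23 and a highest value of 9.70, against 5.81, 7.67, 6.97 and 6.83 in vehicle replicates 1 to 4. Every baclofen spleen was brighter than every vehicle spleen. The log2 fold change was 2.44 ± 0.31 (SE; limma adjusted p = 0.000192), or 5.44-fold. After 1 dose it was 2.01 (adjusted p = 0.00148). The related kinase gene Pdk1 rose by 0.38 ± 0.07 after 5 doses (adjusted p = 0.0079). Together with Acot2, which encodes a mitochondrial thioesterase, these were the 3 of 17 read genes of the fat oxidation and PDK4 list that passed, and the median of that list was -0.01. The call of Acot2 was lost in 7 of the 12 fits that left out 1 spleen (adjusted p of up to 0.109).

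Pik3ip1, an inhibitor of phosphatidylinositol 3-kinase, had a lowest log2 intensity of 9.59, a median of 10.23 and a highest of 10.47 in baclofen spleens, against 8.55, 8.41, 8.52 and 8.79 in vehicle spleens. The groups were far apart, with a log2 fold change of 1.59 ± 0.19 (adjusted p = 0.000185). Sesn1, a sestrin that restrains the growth kinase complex mTORC1, rose by 0.92 ± 0.14 (adjusted p = 0.000956). Txnip, which limits glucose uptake, rose by 0.76 ± 0.11 (adjusted p = 0.000701). Of 20 read genes on the list of FoxO targets and lymphocyte quiescence, 5 rose (Pdk4, Pik3ip1, Sesn1, Txnip and the interleukin-7 receptor gene Il7r) and 1 fell, the growth-arrest gene Btg2, by 0.34 (adjusted p = 0.00699). All 12 fits that each left out 1 of these spleens also gave 5 rises and 1 fall. Of 20 mTORC1 regulators, 3 rose: Sesn1, Ddit4 and Castor1. Castor1 lost its call in 6 of the 12 fits that left out 1 spleen (adjusted p of up to 0.12). Ddit4, a stress-induced mTORC1 inhibitor also known as REDD1, had a lowest log2 intensity of 9.46, a median of 10.27 and a highest of 11.19 in baclofen spleens, against 8.64, 9.12, 9.28 and 8.98 in vehicle spleens. The groups did not overlap, and the log2 fold change was 1.33 ± 0.27 (adjusted p = 0.00875). Its 2 highest arrays were baclofen replicates 1 and 4, which are among those with fat transcripts; without the 5 such spleens its log2 fold change was 1.01 (adjusted p = 0.0693).

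Glucocorticoid-responsive genes were the list with the most rises: 15 of 22 read genes rose, none fell, and the median log2 fold change was 0.67, against -0.004 over all tested genes. The list was written with earlier results of the series known, so its direction is not independent evidence. Lists also share members. Of these 15 genes, Pik3ip1, Txnip, Ddit4, Per1 and Bcl2l11 are counted again in the FoxO, mTORC1, clock or BCL2 family lists. Fkbp5, a co-chaperone that dampens the receptor itself, had a lowest log2 intensity of 10.74, a median of 10.99 and a highest of 11.27 in baclofen spleens, against 9.02, 9.83, 9.40 and 9.31 in vehicle spleens. No array of either group lay within the range of the other, and the log2 fold change was 1.62 ± 0.22 (adjusted p = 0.000444). Tsc22d3, which encodes the anti-inflammatory leucine zipper protein GILZ, had a lowest value of 11.80, a median of 12.16 and a highest of 12.38 in baclofen spleens, against 10.57, 10.62, 10.63 and 11.00 in vehicle spleens. This was a log2 fold change of 1.43 ± 0.18 (adjusted p = 0.000185), with the groups again apart. Klf9, a Krüppel-like repressor, had a lowest value of 10.75, a median of 11.07 and a highest of 11.22 in baclofen spleens, against 9.46, 9.92, 9.96 and 9.90 in vehicle spleens. Its change was 1.25 ± 0.13 (adjusted p = 0.000151).

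Zbtb16, the transcription factor PLZF of innate-like lymphocytes, had a lowest value of 8.90, a median of 9.24 and a highest of 9.78 in baclofen spleens, against 6.53, 8.13, 7.51 and 7.32 in vehicle spleens. The log2 fold change was 1.89 ± 0.29 (adjusted p = 0.00124). The salt and stress kinase gene Sgk1 rose by 0.61 ± 0.10 (adjusted p = 0.00222), and the MAP kinase phosphatase gene Dusp1 rose by 0.92 ± 0.21 (adjusted p = 0.0201). Leaving out vehicle replicate 1 took Dusp1 to an adjusted p of 0.0615. The receptor gene Nr3c1 itself did not pass, with a log2 fold change of -0.02 ± 0.07 (adjusted p = 0.858). Leaving out 1 spleen at a time gave 11 to 16 rises on the list. Without the 3 spleens with liver transcripts there were 9, and without the 5 spleens with fat transcripts also 9.

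Errfi1, a feedback inhibitor of the EGF receptor, and Klf15, a Krüppel-like factor induced by glucocorticoids, belong to the genes that liver tissue could raise and were added after their values were seen. Errfi1 had a lowest log2 intensity of 9.81, a median of 10.56 and a highest of 10.94 in baclofen spleens, against 8.10, 8.01, 8.76 and 8.54 in vehicle spleens. Klf15 had a lowest value of 7.08, a median of 7.52 and a highest of 7.88 in baclofen spleens, against 6.12, 6.10, 6.49 and 6.18 in vehicle spleens. For both genes, every baclofen spleen was brighter than every vehicle spleen. The log2 fold changes were 2.17 for Errfi1 and 1.28 for Klf15, and 2.23 and 1.35 without the 3 spleens with liver transcripts (adjusted p = 0.02 for both in limma). Of the 229 such genes, 15 rose (6.55%) and none fell in limma.

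**Figure D2:**
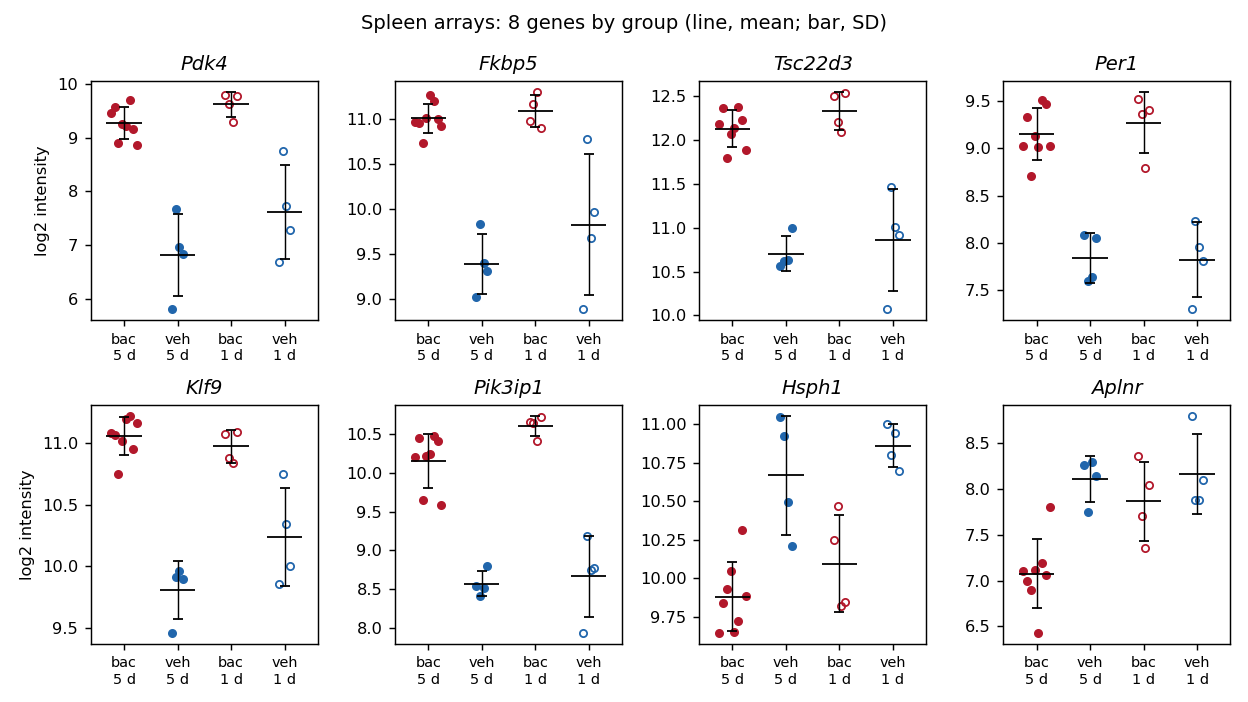
Log2 intensity of 8 genes in each spleen array, with baclofen (red) left of vehicle (blue), after 5 daily doses (filled) and after 1 dose (open). Horizontal lines are group means and bars are SD. Pdk4, Fkbp5, Tsc22d3, Per1, Klf9 and Pik3ip1 lie higher in every 5-day baclofen spleen than in any 5-day vehicle spleen, and Hsph1 and Aplnr lie mostly lower.

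The promoter of Sgk1 is shown because it was the promoter of the list that held a full palindromic glucocorticoid response element (AGAACA, any 3 bases, then TGTTCT), searched on both strands in windows from 250 bases before to 50 after the RefSeq start. The element was found in 3 of 32851 mouse promoters (0.00913%) and in 1 of the 17 list genes with a promoter sequence. A list gene counted if any of its promoters held the motif, here and for the motifs below. Shares of genes and shares of promoters are therefore unlike units. The 120 bases below come from the RefSeq promoter table of build GRCm38.p6, at chr10:21993648-21993767, plus strand, with the element in capitals.
Sgk1: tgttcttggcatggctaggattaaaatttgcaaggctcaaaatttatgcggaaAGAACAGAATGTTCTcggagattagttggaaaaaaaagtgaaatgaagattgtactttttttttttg
In the array data Sgk1 was higher in all 8 baclofen spleens (9.49 to 10.03) than in the vehicle spleens (8.96 to 9.27). The match describes the letters of this window and is not evidence of binding.

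The circadian clock is a feedback loop in which Per and Cry proteins repress their own activators, and the nuclear receptors Nr1d2 and Rora act on a second loop. Of 12 core clock genes read, 4 rose and none fell. Per1, which is also a glucocorticoid target, had a lowest log2 intensity of 8.71, a median of 9.08 and a highest of 9.52 in baclofen spleens, against 8.08, 7.59, 7.63 and 8.05 in vehicle spleens. The groups did not overlap, and the log2 fold change was 1.31 ± 0.17 (adjusted p = 0.00034). Nr1d2 rose by 0.75 ± 0.15 (adjusted p = 0.00699), Per3 by 0.69 ± 0.15 (adjusted p = 0.0171) and Rora by 0.46 ± 0.12 (adjusted p = 0.0396). Of 9 clock output genes, 5 rose and none fell. Cirbp, a cold-inducible RNA-binding protein, had a lowest value of 8.91, a median of 9.54 and a highest of 10.12 in baclofen spleens, against 8.10, 7.68, 8.03 and 8.74 in vehicle spleens, a log2 fold change of 1.40 ± 0.21 (adjusted p = 0.00101). The D-box binding factors Hlf and Tef rose by 0.64 ± 0.11 (adjusted p = 0.00345) and 0.63 ± 0.13 (adjusted p = 0.00812), and the clock repressor gene Ciart by 0.32 ± 0.07 (adjusted p = 0.0114).

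Vehicle replicate 2 had the lowest Nr1d2, Per3, Rora and Tef of the 12 spleens. Without it, 2 core clock genes and 2 output genes rose, and the adjusted p became 0.0955 for Per3, 0.176 for Rora, 0.0527 for Tef and 0.0602 for Ciart. Rora also missed the threshold in 8 of the other 11 fits that left out 1 spleen. The Per1 promoter is shown for its E-box, CACGTG, the site used by clock activators. This motif is common, in 7.15% of the 32851 promoters. Counted by gene rather than by promoter, it was found in 5 of 18 clock genes with a promoter sequence. The 120 bases lie at chr11:69098726-69098845 of GRCm38.p6, plus strand, from the RefSeq promoter table, with the E-box in capitals.
Per1: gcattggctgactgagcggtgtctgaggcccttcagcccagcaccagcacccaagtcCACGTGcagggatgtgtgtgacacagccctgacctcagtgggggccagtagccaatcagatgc

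Heat shock chaperones keep proteins folded and are switched on together by a heat shock factor that binds repeated GAA triplets. Of 19 such genes read, 10 fell and none rose, with a median log2 fold change of -0.37. Hsph1, a nucleotide exchange factor for HSP70, had a lowest log2 intensity of 9.65, a median of 9.86 and a highest of 10.31 in baclofen spleens, against 11.05, 10.92, 10.50 and 10.21 in vehicle spleens. The groups overlapped by 1 baclofen spleen, replicate 7, and the log2 fold change was -0.79 ± 0.15 (adjusted p = 0.00699). Dnaja1, an HSP40 co-chaperone, had a lowest value of 10.40, a median of 10.59 and a highest of 10.85 in baclofen spleens, against 11.35, 11.04, 11.06 and 10.92 in vehicle spleens. All baclofen spleens were lower, with a log2 fold change of -0.48 ± 0.09 (adjusted p = 0.00699). Cacybp, which encodes calcyclin-binding protein, fell by 0.47 (SE 0.09, adjusted p = 0.00744). Ahsa1, the activator of the HSP90 ATPase, fell by 0.34 (SE 0.07, adjusted p = 0.0106), while a second bright Ahsa1 probe set had a log2 fold change of 0.12.

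The heat shock count was sensitive to the arrays used. Leaving out 1 spleen at a time gave 3 falls (without vehicle replicate 2) to 13 (without baclofen replicate 7). No member passed without the 3 spleens with liver transcripts or without the 5 with fat transcripts, where Hsph1 had log2 fold changes of -0.65 and -0.88 (adjusted p = 0.0819 and 0.0628). The list median was -0.26 and -0.40 in these smaller sets of arrays. With all arrays kept and the adipocyte covariate, Hsph1 had -0.85 (adjusted p = 0.0469 in limma). Dnaja1, Cacybp and Ahsa1 missed the threshold in that fit (0.0689, 0.0794 and 0.0581). The cause of these changes in the count was not tested. Ahsa1 had an adjusted p of 0.0574 without vehicle replicate 2. After 1 dose, 12 of the 19 fell and none rose, while 7.91% of all tested genes fell.

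A heat shock element, searched on both strands as GAA, any 2 bases, TTC, any 2 bases and GAA, was found in 0.603% of the 32851 promoters. Counted by gene rather than by promoter, it was present in 4 of 17 heat shock genes with a promoter sequence: Hsph1, Chordc1, Hspd1 and Hspe1. Hspd1 and Hspe1 encode the mitochondrial chaperonin pair. The Hspd1 promoter is printed because its element lies wholly upstream of the start, at chr1:55088011-55088130 of GRCm38.p6, minus strand, from the RefSeq promoter table. Capitals mark 2 overlapping matches.
Hspd1: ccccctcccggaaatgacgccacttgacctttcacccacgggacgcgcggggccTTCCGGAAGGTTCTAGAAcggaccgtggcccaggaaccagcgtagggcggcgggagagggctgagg
Hspd1 had a log2 fold change of -0.40 ± 0.11 (adjusted p = 0.0447), a call that was lost in 9 of the 12 fits that left out 1 spleen, where its adjusted p reached 0.176. For Hspe1 the value was -0.25 ± 0.09 (adjusted p = 0.0986), and Chordc1, an HSP90 co-chaperone, had -0.41 ± 0.11 (adjusted p = 0.0353), with 6 of 12 such calls lost and an adjusted p of up to 0.119. Motifs were chosen with these values known.

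**Figure D3:**
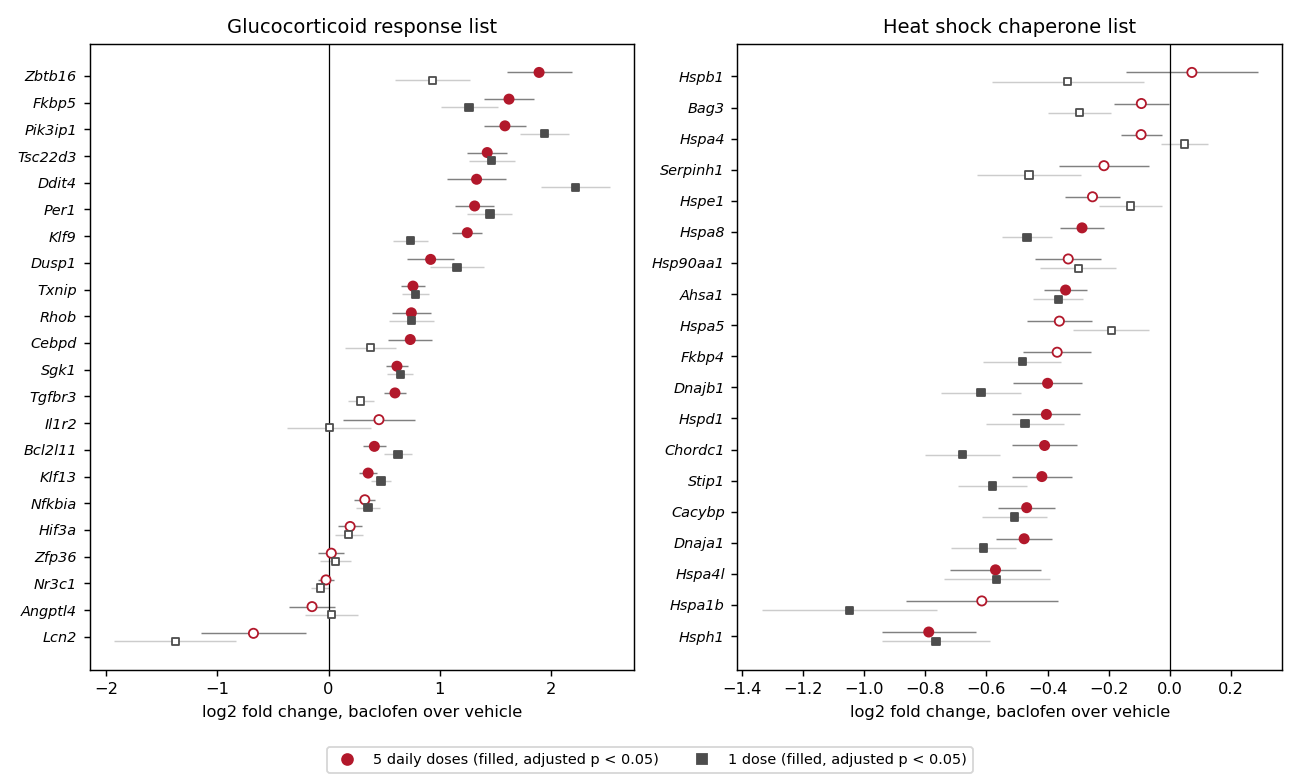
Log2 fold change of baclofen over vehicle, with SE bars, for the 22 glucocorticoid-responsive genes and the 19 heat shock chaperones read in spleen. Red circles are 5 daily doses, grey squares are 1 dose, and filled symbols passed an adjusted p of 0.05. On the left, 15 circles are filled, all above 0; on the right, 10 are filled, all below 0.

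Among the genes with the 12 largest rises, 3 more were outside the lists above. Fam107a, an actin-associated protein, had a lowest log2 intensity of 8.15, a median of 8.44 and a highest of 9.07 in baclofen spleens, against 5.82, 6.99, 6.48 and 6.29 in vehicle spleens. It rose by 2.10 ± 0.29 (adjusted p = 0.000436), and the groups were more than 1 log2 unit apart. Trnp1, a nuclear protein studied in neural progenitors, rose by 1.34 ± 0.22 (adjusted p = 0.00222). Fabp4, a fatty acid carrier of fat cells and endothelium, had a lowest value of 7.40, a median of 9.19 and a highest of 10.69 in baclofen spleens, against 6.25, 6.78, 7.56 and 6.11 in vehicle spleens. Its highest arrays were baclofen replicates 1 and 7, the same that had the highest Adipoq. Fabp4 rose by 2.30 ± 0.55 (adjusted p = 0.0233), but without the 5 spleens with fat transcripts its log2 fold change was 1.01 (adjusted p = 0.257). Its adjusted p was 0.0695, 0.075 and 0.052 without vehicle replicates 1, 2 and 4.

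The calls of the 12 largest falls rested more on single arrays: 2 of the 12 held in every fit that left out 1 spleen, against 11 of the 12 largest rises. Cpeb3, a translation regulator, had a lowest log2 intensity of 5.86, a median of 6.18 and a highest of 6.83 in baclofen spleens, against 8.21, 7.69, 6.89 and 7.00 in vehicle spleens, and fell by 1.18 (SE 0.24, adjusted p = 0.0101). The groups did not overlap, but the adjusted p was 0.0544 without vehicle replicate 2. Aplnr, the apelin receptor, had a lowest value of 6.43, a median of 7.09 and a highest of 7.81 in baclofen spleens, against 8.26, 7.74, 8.30 and 8.14 in vehicle spleens. Only baclofen replicate 8 reached into the vehicle range. Aplnr fell by 1.04 (SE 0.22, adjusted p = 0.0106), and the call held in all 12 fits that left out 1 spleen, with an adjusted p of up to 0.0382. It was lost without the 3 spleens with liver transcripts (adjusted p = 0.123).

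The protocadherin gene Pcdh18 fell by 1.15 (adjusted p = 0.0113) and Rdh10, a retinol dehydrogenase, by 0.60 (adjusted p = 0.0143). Without vehicle replicate 1 these had adjusted p-values of 0.0515 and 0.0606. Ell2, an elongation factor that plasma cells use to make secreted antibody, fell by 0.82 (adjusted p = 0.0187), which became 0.0666 and 0.0672 without vehicle replicates 1 and 2. Reln, Id4, Cmas, Manf, Sdf2l1 and Wapl passed with adjusted p-values of 0.0313 to 0.0484. For Reln, a matrix glycoprotein, 8 of 12 fits that left out 1 spleen lost the call, with an adjusted p of up to 0.117. The corresponding numbers were 4 for Id4, an inhibitor of bHLH factors (up to 0.105), and 9 for Cmas, which activates sialic acid (up to 0.16). They were 8 for Manf (up to 0.0906) and 7 for Sdf2l1 (up to 0.0771), both endoplasmic reticulum proteins, and 7 for Wapl, which releases cohesin from chromatin (up to 0.169).

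Manf had 12.20 in vehicle replicate 1 and 10.56, 10.82 and 10.58 in the other vehicle spleens, with the baclofen spleens between 10.06 and 10.50. The same array stood out for Sdf2l1 and for the plasma cell chaperone gene Fkbp11, which had 9.33 there and 6.53 to 6.87 in the other vehicle spleens. The plasma cell list averaged 9.10 to 9.45 in baclofen spleens and 9.11 to 10.90 in vehicle spleens, and none of its 11 genes passed. Of 20 unfolded protein response genes, 2 fell, Manf and Sdf2l1. Leaving out 1 spleen at a time gave 0 to 6 falls on that list. The part of plasma cell transcripts in these values was not tested.

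Of 13 BCL2 family genes, which set whether a cell survives, 4 rose and none fell, with a list median of 0.06. Of the 4, 3 promote cell death: Bmf, at 0.72 ± 0.14 (adjusted p = 0.00699), Bbc3, which encodes PUMA, at 0.51 ± 0.12 (adjusted p = 0.0181), and Bcl2l11, which encodes BIM, at 0.41 ± 0.11 (adjusted p = 0.0342). Bcl2, which protects cells, rose by 0.59 ± 0.14 (adjusted p = 0.0234). Without vehicle replicate 1 a single member rose. None passed with the 3 baclofen arrays left without the 5 spleens with fat transcripts, where the log2 fold changes were 0.69 for Bmf, 0.48 for Bbc3, 0.43 for Bcl2l11 and 0.68 for Bcl2. Bmf kept its call in every fit that left out 1 spleen, with an adjusted p of up to 0.0487. The call of Bbc3 was lost without vehicle replicate 1 (0.0703), that of Bcl2 without vehicle replicates 1 and 2 (0.0668 and 0.114), and that of Bcl2l11 in 7 of 12 fits (up to 0.116).

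Cxcr4, the receptor that holds lymphocytes in tissue through CXCL12, was the 1 of 22 chemokine genes that passed. It had a lowest log2 intensity of 10.91, a median of 11.01 and a highest of 11.30 in baclofen spleens, against 10.35, 10.31, 10.09 and 10.28 in vehicle spleens. The 2 groups lay over 0.5 log2 units apart, with a change of 0.78 ± 0.10 (adjusted p = 0.000185). Il7r was the 1 of 22 T cell genes that passed, with a lowest value of 10.63, a median of 11.03 and a highest of 11.45 in baclofen spleens, against 9.76, 9.91, 9.84 and 10.34 in vehicle spleens. It rose by 1.07 ± 0.16 (adjusted p = 0.00123). None of the 21 B cell genes passed, and Ebf1, a B cell factor, had the value 0.41 ± 0.16 (adjusted p = 0.135). None of 15 natural killer genes passed either, with Ncr1 at -0.40 ± 0.12 (adjusted p = 0.0563). Gata2, listed with mast cell and basophil genes, rose by 0.41 ± 0.07 (adjusted p = 0.00434).

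None of the 3 GABA signalling genes read passed. Gabbr1, a subunit of the GABA-B receptor, had a lowest log2 intensity of 8.82, a median of 8.91 and a highest of 9.03 in baclofen spleens, against 8.70, 8.57, 8.93 and 8.74 in vehicle spleens. The groups overlapped, and the log2 fold change was 0.19 ± 0.10 (adjusted p = 0.223). No immediate early factor passed among 14, with Fos at 0.37 ± 0.24 (adjusted p = 0.316), and 2 of 20 cAMP response genes rose. Of 26 interferon response genes none rose, 2 fell (Igtp and Ddx58) and 24 had negative log2 fold changes, with a list median of -0.30; over all tested genes, 50.7% were negative. Of the 12 fits that left out 1 spleen, 5 lost the call of Igtp (up to an adjusted p of 0.144) and 10 that of Ddx58 (up to 0.124). Leaving out 1 spleen at a time gave 0 to 4 falls on that list.

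All 20 endothelial genes read had positive log2 fold changes, 6 of them passing, and the list averaged 8.00 to 8.35 in baclofen spleens and 7.61 to 8.10 in vehicle spleens. Sox18, a vascular transcription factor, had a change of 0.45 ± 0.10 (adjusted p = 0.014), and 0.0849 without vehicle replicate 2. No endothelial gene passed without that array. None passed with the 3 baclofen arrays left without the 5 spleens with fat transcripts, where Sox18 had a log2 fold change of 0.45 (adjusted p = 0.0795) and the list median was 0.37, against 0.28 with all arrays. In baclofen replicates 1 to 8 the list mean was 8.29, 8.17, 8.10, 8.13, 8.04, 8.30, 8.00 and 8.35. Adipoq in the same order was 9.58, 4.00, 7.98, 7.45, 5.13, 7.61, 9.37 and 4.67. The relation between the 2 was not tested. Of 23 stromal genes, 2 rose and 11 had positive values, with a list median of -0.01. The fibroblast receptor gene Pdgfra had a lowest value of 9.40, a median of 9.64 and a highest of 9.99 in baclofen spleens, against 8.36, 9.10, 8.91 and 8.69 in vehicle spleens. It rose by 0.87 ± 0.15 (adjusted p = 0.00249) and had a log2 fold change of 1.01 (adjusted p = 0.0377) without the 5 spleens with fat transcripts. The collagen-binding proteoglycan gene Dcn rose by 0.97 ± 0.19 (adjusted p = 0.00812), which became 0.0546 without vehicle replicate 2 and 0.128 without the 5 spleens.

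Red cell precursor and cell division genes had large negative values that did not pass, and the arrays of each group spread widely. The median log2 fold change was -0.95 for 29 mitosis genes, -0.42 for 34 DNA replication genes and -0.81 for 20 erythroid membrane and globin genes. None of the genes on these lists had a positive value and none passed in limma. The mitosis list averaged 7.79 to 9.41 in baclofen spleens and 8.70 to 10.06 in vehicle spleens. The erythroid membrane list averaged 7.69 to 10.21 in baclofen spleens and 8.55 to 10.79 in vehicle spleens, so both lists overlapped between groups. Ube2c, a ubiquitin enzyme of mitotic exit, had a lowest value of 9.52, a median of 10.60 and a highest of 11.77 in baclofen spleens, against 11.39, 12.49, 11.19 and 11.72 in vehicle spleens (log2 fold change -1.13 ± 0.37, adjusted p = 0.0795). Epb42, a red cell membrane protein, had a lowest value of 4.78, a median of 6.42 and a highest of 8.75 in baclofen spleens, against 6.40, 9.92, 7.62 and 8.87 in vehicle spleens (log2 fold change -1.68 ± 0.66, adjusted p = 0.128). Baclofen replicate 7 was the highest baclofen array for both genes. Without it, 19 of the 29 mitosis genes fell. Vehicle replicate 1 had the lowest erythroid membrane mean of the vehicle spleens, and it is among the 3 spleens with liver transcripts. Leaving those 3 out keeps only vehicle replicates 2 and 4 as controls. Their erythroid membrane means were 10.79 and 10.04, against 8.55 and 9.35 in vehicle replicates 1 and 3. In that set the median log2 fold change was -1.65 for the erythroid membrane list and -1.24 for the mitosis list. Epb42 had -2.88 there (adjusted p = 0.068 in limma), and no gene of either list passed. The part of the choice of vehicle arrays in these values was not tested.

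**Figure D4:**
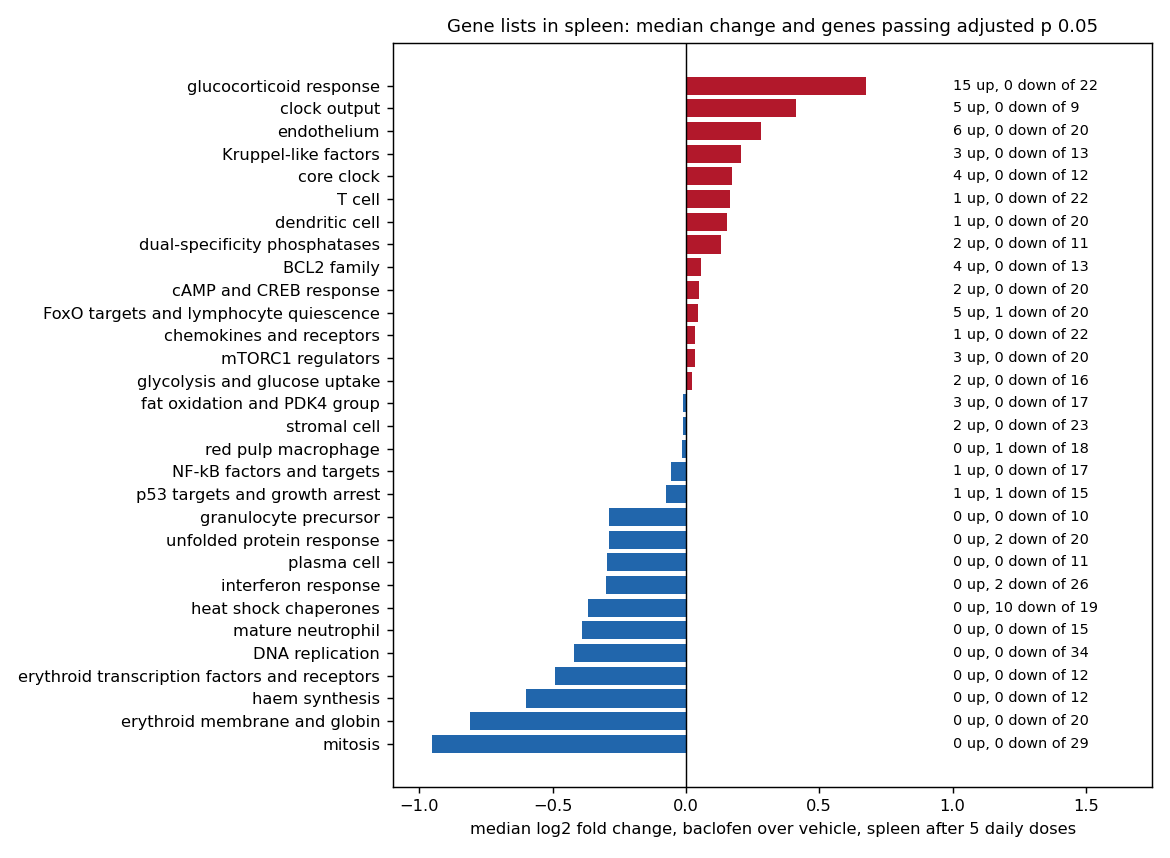
Median log2 fold change, baclofen over vehicle, of gene lists in spleen after 5 daily doses, with the number of genes that rose and fell among those read. Lists with at least 9 genes read are shown if any gene passed or if the median was at least 0.25 in size. The glucocorticoid list has the highest median, 0.67, with 15 of 22 genes up, and the mitosis list the lowest, -0.95, with none passing.

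The second question was whether 5 doses gave another response than 1 dose. After 1 dose, 15.5% of the tested genes passed (1697 of 10916), 7.64% upwards and 7.91% downwards. Of the 318 genes that rose after 5 doses, 185 also rose after 1 dose, which is 58.2% of the 5-dose rises and 22.6% of the 1-dose rises. Of the 151 falls, 103 were shared, which is 68.2% of the 5-dose falls and 12.1% of the 1-dose falls. No gene passed in opposite directions. The 2 times have separate vehicle groups. The difference between the 5-dose and 1-dose effects, tested as an interaction in limma, passed for no gene, with 858 at an unadjusted p under 0.05 of 10916. Side by side, Ddit4 had log2 fold changes of 1.33 after 5 doses and 2.22 after 1, Cirbp 1.40 and 2.44, and Klf9 1.25 and 0.74. For Dusp2, a lymphocyte phosphatase, they were 0.71 and 1.43. The 1-dose spleens had hepatocyte means of 4.82 to 5.01 with baclofen and 4.78 to 4.89 with vehicle. Fat transcripts were present in some of them: Adipoq was 6.40 in baclofen replicate 2, against 7.41 and 6.24 in vehicle replicates 3 and 4, and did not exceed 4.05 in the other 5. Their part in the 1-dose values was not tested.

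The third question was where the spleen differed from bone marrow, the other blood-forming tissue sampled at 5 days. The difference of the baclofen effects, spleen minus marrow, passed for 458 of 10212 genes (4.48%) in a limma fit of all 59 arrays, 151 of them positive (1.48%) and 307 negative (3.01%). Outside the genes that liver could raise there were 147 positive and 304 negative differences, and 239 and 255 after quantile normalization within each tissue. Neto2, an auxiliary subunit of glutamate receptors, had the smallest adjusted p of the 10 genes named. Its log2 intensity in spleen had a lowest value of 6.93, a median of 7.40 and a highest of 7.79 with baclofen, against 6.49, 6.28, 6.37 and 5.96 with vehicle. The log2 fold change was 1.10 in spleen and -0.20 in marrow, a difference of 1.31 ± 0.18 (adjusted p = 1.5e-05). Cebpd, a stress-responsive C/EBP factor, had 0.73 in spleen and -0.66 in marrow, a difference of 1.40 ± 0.27 (adjusted p = 0.00172). Pdk4 had 2.44 in spleen and 0.67 in marrow, a difference of 1.78 ± 0.50 (adjusted p = 0.0283). Mgp, a calcification inhibitor, had 0.64 and -0.67, a difference of 1.31 ± 0.34 (adjusted p = 0.0179), and Fabp4 2.30 and 0.61, a difference of 1.69 ± 0.53 (adjusted p = 0.0497).

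The differences below 0 were led by Tmcc2, Mageb16, Ypel4, Trim10 and Fhdc1. Tmcc2 had -1.84 in spleen and 0.29 in marrow, a difference of -2.14 ± 0.49 (adjusted p = 0.00737). Trim10, an erythroid ubiquitin ligase, had -1.49 and 0.39, a difference of -1.89 ± 0.50 (adjusted p = 0.0212). None of these 5 genes passed in spleen alone or in marrow alone. The p-values of the differences use 1 spread per gene from all 59 arrays, of which 19 are liver arrays outside the comparison. Fitted on the compared groups alone, 101 positive and 141 negative differences passed outside the liver-bright genes. The labels do not say whether spleens and marrows with equal numbers came from the same mouse, and the 59-array fit treats them as separate samples. With the number as a block, limma gave adjusted p-values of 0.0591 for Trim10, 0.0671 for Mageb16, 0.076 for Fabp4 and 0.0501 for Fhdc1 spleen minus marrow, while the other 6 genes named kept their calls. Without spleen vehicle replicate 2, their adjusted p-values were 0.0831 for Tmcc2, 0.169 for Mageb16, 0.148 for Ypel4, 0.161 for Trim10 and 0.144 for Fhdc1, and the whole comparison had 34 positive and 45 negative differences outside the liver-bright genes. Neto2 and Cebpd kept their calls in every fit that left out 1 array. Without spleen vehicle replicate 1 Pdk4 had an adjusted p of 0.0704, without marrow vehicle replicate 2 or 4 it had 0.0534 or 0.0589, and Mgp had 0.0864 without spleen vehicle replicate 2 and 0.0593 without marrow vehicle replicate 2. Fabp4 lost its call in 17 of 24 such fits. The Pdk4 difference had an adjusted p of 0.119 without the 3 spleens with liver transcripts. It had 0.0736 with the adipocyte covariate and 0.0536 without the 5 spleens with fat transcripts. For Fabp4 the last 2 fits gave 0.512 and 0.61, while the other genes named kept their calls in these fits.

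**Figure D5:**
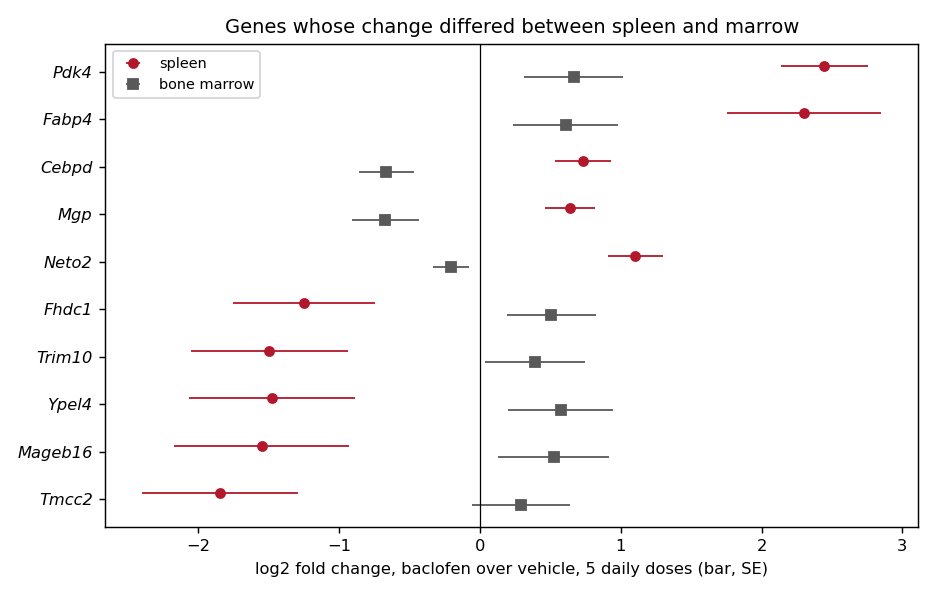
Log2 fold change of baclofen over vehicle after 5 daily doses, with SE bars, in spleen (red circles) and bone marrow (grey squares), for the 5 largest differences in each direction. Spleen bars come from the fit of the 20 spleen arrays and marrow bars from the fit of all 59 arrays, so their lengths are not directly comparable. Pdk4 lies at 2.44 in spleen and 0.67 in marrow, and Tmcc2 at -1.84 in spleen and 0.29 in marrow.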

How the data were processed

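Total RNA from liver, bone marrow and spleen was measured on Affymetrix arrays of 45101 probe sets. Spleen RNA was isolated on Qiagen mini columns and labelled with the One-Cycle kit, per the labels' protocols. The deposited values are intensities on a linear scale, from 5.25 to 43115, and the submitters' processing notes name RMA and limma. Median intensity was 74.3 to 77.6 in the 20 spleen arrays. At 5 days, the 3 prime minus 5 prime control signal was 0.53 and 0.55 log2 units in baclofen replicates 6 and 8. It was 0.28 to 0.44 in the other baclofen spleens and 0.31 to 0.36 in vehicle spleens. No 2 arrays were identical. The number of arrays limits the precision.

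Intensities were transformed to log2 here. The 34945 probe sets with 1 gene symbol covered 18193 genes, and each gene was read from its probe set with the highest mean over the spleen arrays. Genes at or above the 40th percentile of mean brightness (6.31 on the log2 scale) were tested. The 4 spleen groups were fitted together with limma 3.58.1 in R 4.3.3 (lmFit, eBayes), with 2-sided p-values adjusted by the Benjamini-Hochberg method over all tested genes. Spleen was compared with marrow in 1 fit of all 12 groups. The code was tested on simulated data.

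Genes at least 3 log2 units brighter in a liver group than in 1-day spleens stayed in the fits and were counted apart. The groups and the 50 gene lists were chosen with earlier results of these data known. The genes named are the 12 largest rises and 12 largest falls past the threshold, up to 4 members of each list by adjusted p (up to 2 by size where none passed), the 5 largest differences from marrow each way, and Gabbr1. Errfi1, Klf15, Sgk1, Hspd1, Chordc1, Hspe1 and Nr3c1 were added after their values were seen. Of 70 named genes that passed, 47 had several probe sets, and none of these had another probe set that passed in the opposite direction. Alternatives changed the filter, probe set rule, normalization, moderation, samples, weights, RNA quality and liver covariates, thresholds and replicate block. The fat covariate and the fit without 5 fat-carrying spleens were chosen after seeing the data.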

Additional observations from a re-analysis of the deposited data

Results flagged for a closer look

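In 190 checks of a group for a single array far from its neighbours, 12 stood out, and chance gives about 1 in 20. The widest gap in log2 units was in the hepatocyte mean of baclofen replicate 5, at 9.77, with the next baclofen spleen at 5.48. This spleen was already known to carry liver transcripts, so its flag adds no new information. Vehicle replicate 1 was highest among the vehicle spleens for 3 genes of the secretory pathway: Manf at 12.20 (next 10.82), Sdf2l1 at 10.21 (next 9.02) and Fkbp11 at 9.33 (next 6.87). It was lowest for Klf9, at 9.46, with the next vehicle spleen at 9.90. Wapl was 10.69 in vehicle replicate 2 (next 9.99), and Tsc22d3 was 11.00 in vehicle replicate 4 (next 10.63).

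Baclofen replicate 8 was highest of its group for Rdh10 at 9.55 (next 9.14), Per3 at 8.32 (next 7.79) and Eng, an endothelial co-receptor, at 10.16 (next 9.93). Cacybp was 9.80 in baclofen replicate 6 (next 10.10), and Sox18 was 8.69 in baclofen replicate 7 (next 9.02).

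The baclofen effect at 5 days differed between spleen and marrow, by the limma test of the difference, for the 10 genes named. The difference of log2 fold changes, spleen minus marrow, was 1.78 for Pdk4, 1.69 for Fabp4, 1.40 for Cebpd, 1.31 for Mgp and 1.31 for Neto2. It was -2.14 for Tmcc2, -2.07 for Mageb16, -2.05 for Ypel4, -1.89 for Trim10 and -1.76 for Fhdc1.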

How the results depend on the processing

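In spleen at 5 days, 318 genes rose and 151 fell in the fit described. No filter on brightness gave 98 falls, a 60th percentile filter 202 rises, quantile normalization 543 rises and array weights 256 falls. An RNA quality covariate (3 prime minus 5 prime control signal) gave 191 rises and 63 falls. Without the 3 spleens with liver transcripts there were 120 and 41, with an adipocyte covariate 57 and 4, and without the 5 spleens with fat transcripts 52 and 4, from fewer samples in the first and last case. An adjusted p under 0.01 left 91 and 20, and a minimum of 1.5-fold 77 and 16. Leaving out 1 array at a time gave 95 to 420 rises and 33 to 320 falls. With the replicate number as a block (replicate block), 0 genes rose and 1 fell. The labels do not say whether equal numbers pair these spleens. Deviations of same-numbered baclofen and vehicle arrays correlated at 0.15, -0.25, -0.33 and -0.15, which cannot settle it. Baclofen replicates 5 to 8 have no vehicle spleen of the same number, so the block fit draws its contrast from fewer arrays.

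For the 5-dose minus 1-dose difference, array weights gave 19 positive and 13 negative calls, and all fits without 1 array gave 0. For spleen minus marrow, with 147 positive and 304 negative calls outside the liver-bright genes, quantile normalization gave 239 positive and the fit of the compared groups alone 141 negative. Array weights gave 667 and 996, and a hepatocyte covariate 621 negative. Without the 3 spleens with liver transcripts there were 377 and 731, without the 5 with fat transcripts 661 negative, and with an adipocyte covariate 94 and 189. An adjusted p under 0.01 left 37 and 76, a minimum of 1.5-fold 58 and 187, and the replicate block gave 271 positive. Deviations of same-numbered spleen and marrow arrays correlated at -0.22 to 0.44. Leaving out 1 array gave 34 to 311 positive and 45 to 852 negative.

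Of 3730 values of single genes under the alternatives, 551 lost their call and 29 gained one, and no value that passed changed direction. The 3730 include genes without a call in the fit described, which had none to lose. Of the 12 largest rises, 10 kept their call in each alternative except the replicate block: Pdk4, Fam107a, Zbtb16, Fkbp5, Pik3ip1, Tsc22d3, Cirbp, Trnp1, Per1 and Klf9. None of the 12 largest falls did. The causes were not tested.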
